A study of Mus musculus with 12 samples.

Results

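Transferrin, the plasma protein that carries iron, its receptor and the other genes of iron uptake were followed through macrophages sorted from mouse bone marrow. The 10 genes were listed by symbol: the carrier Trf; its receptor Tfrc; the metal transporters Slc11a1 and Slc11a2; the ferrireductase Steap3; Ncoa4, which sends ferritin to lysosomes; the iron regulatory proteins Aco1 and Ireb2; the ferroxidase Cp; and the iron chaperone Pcbp1. All 10 were among the 18467 genes of the count table, and all 10 passed the filter on low counts that left 12882 tested genes.

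RNA was sequenced from 12 libraries in 4 groups of 3. General macrophages were sorted as CD11b+ F4/80+ cells, and niche macrophages as VCAM1+ CD163+ CCR3+ cells. Both came either from healthy control mice (normal marrow) or from mice with bone metastases (metastatic marrow), made by injecting E0771, a mouse breast cancer cell line, into the caudal artery of female Albino B6 mice aged 8 weeks. No genetic change is named for any group, the age of the healthy mice is not given, and the 3 libraries of a group came from different mice. Titles use the word general for niche sorts as well, so the sorting antigens were taken to define the population. A library is named by its group and its repeat number in the titles. The niche libraries from normal marrow carry numbers that differ from the titles and are called A, B and C.

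Cells take up iron mainly as transferrin bound to its receptor at the surface. In the endosome the metal is released, reduced by a STEAP ferrireductase and moved into the cytosol by SLC11A2 (DMT1), while receptor and carrier return to the surface. Marrow macrophages also gain iron by engulfing old red cells and expelled nuclei, and SLC11A1 (NRAMP1) moves metal out of the phagosome. The iron regulatory proteins, encoded by Aco1 and Ireb2, bind a hairpin in messenger RNA when iron is scarce: in a 3′ UTR this protects the message, and in a 5′ UTR it blocks translation. Erythroblasts, the red cell precursors that sit on niche macrophages, carry very much transferrin receptor.

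The hairpins that link these genes are printed because Tfrc, 1 of the called genes, held 4 matches in the search described here. Hairpins with another loop or stem are missed by it. GENCODE M21 transcripts (GRCm38, the mm10 build named by the submitters) were searched on the transcript strand for CNNNNNCAGTGN, with a last loop base other than G, followed by 5 bases of which all 5 pair with the 5 after the first C, G:T pairs allowed. Such an element lay in a 3′ UTR of 0.457% and in a 5′ UTR of 0.101% of 21877 genes with coding transcripts. Tfrc was the 1 gene with 4 or more in a 3′ UTR, and none of the other 9 members held one. With 4 of 5 pairs allowed, Slc11a2 held one in the 3′ UTR of 1 of its 6 coding transcripts. The elements of Tfrc lay in 1 of 3 coding transcripts, that of Slc40a1 in 1 of 4, that of Ftl1 in 1 of 2 and that of Fth1 in 4 of 5. Counts per gene do not separate these transcripts from the others. The elements of the storage genes Fth1 and Ftl1 and of the exporter Slc40a1 (ferroportin), which lie in 5′ UTRs, are shown for comparison. Capitals mark the CAGTGN loop, in DNA letters from 5′ to 3′.
Tfrc element 1 (chr16:32631220-32631246, plus strand, 3′ UTR): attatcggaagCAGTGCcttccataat
Tfrc element 2 (chr16:32631599-32631625, plus strand, 3′ UTR): attatcgggagCAGTGTcttccataat
Tfrc element 3 (chr16:32631664-32631690, plus strand, 3′ UTR): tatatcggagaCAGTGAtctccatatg
Tfrc element 4 (chr16:32631711-32631737, plus strand, 3′ UTR): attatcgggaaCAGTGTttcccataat
Slc11a2 element (chr15:100395154-100395180, minus strand, 3′ UTR): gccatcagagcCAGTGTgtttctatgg
Slc40a1 element (chr1:45925466-45925492, minus strand, 5′ UTR): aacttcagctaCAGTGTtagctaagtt
Fth1 element (chr19:9982733-9982759, plus strand, 5′ UTR): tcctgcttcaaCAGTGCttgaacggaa
Ftl1 element (chr7:45459780-45459806, minus strand, 5′ UTR): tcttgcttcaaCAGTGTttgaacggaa
A match is a description of the letters, and binding was not measured.

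Library totals ran from 13687945 to 30332417 counts, and 3 counts, the least taken as detected, were worth 0.109 to 0.243 CPM (counts per 1000000, after TMM scaling of the library totals). Vcam1 lay at 937.6 to 2248 CPM in the niche libraries and at 47.6 to 92.5 CPM in the general libraries, and Cd163 at 296.6 to 941.0 and 1.96 to 27.9 CPM. Adgre1, which encodes F4/80, was above 60 CPM in all 12 libraries. Both sorts held transcripts of genes listed as markers of other cells, and which cells they came from was not tested. Summed over the list, monocyte genes gave 14273 to 20486 CPM in general and 5649 to 11625 CPM in niche libraries, neutrophil genes 14055 to 22495 and 9641 to 11282 CPM, and erythroid genes 37.0 to 121 and 708.0 to 1803 CPM. Libraries of a group differed widely, with a common biological coefficient of variation of 1.30.

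**Figure D1:**
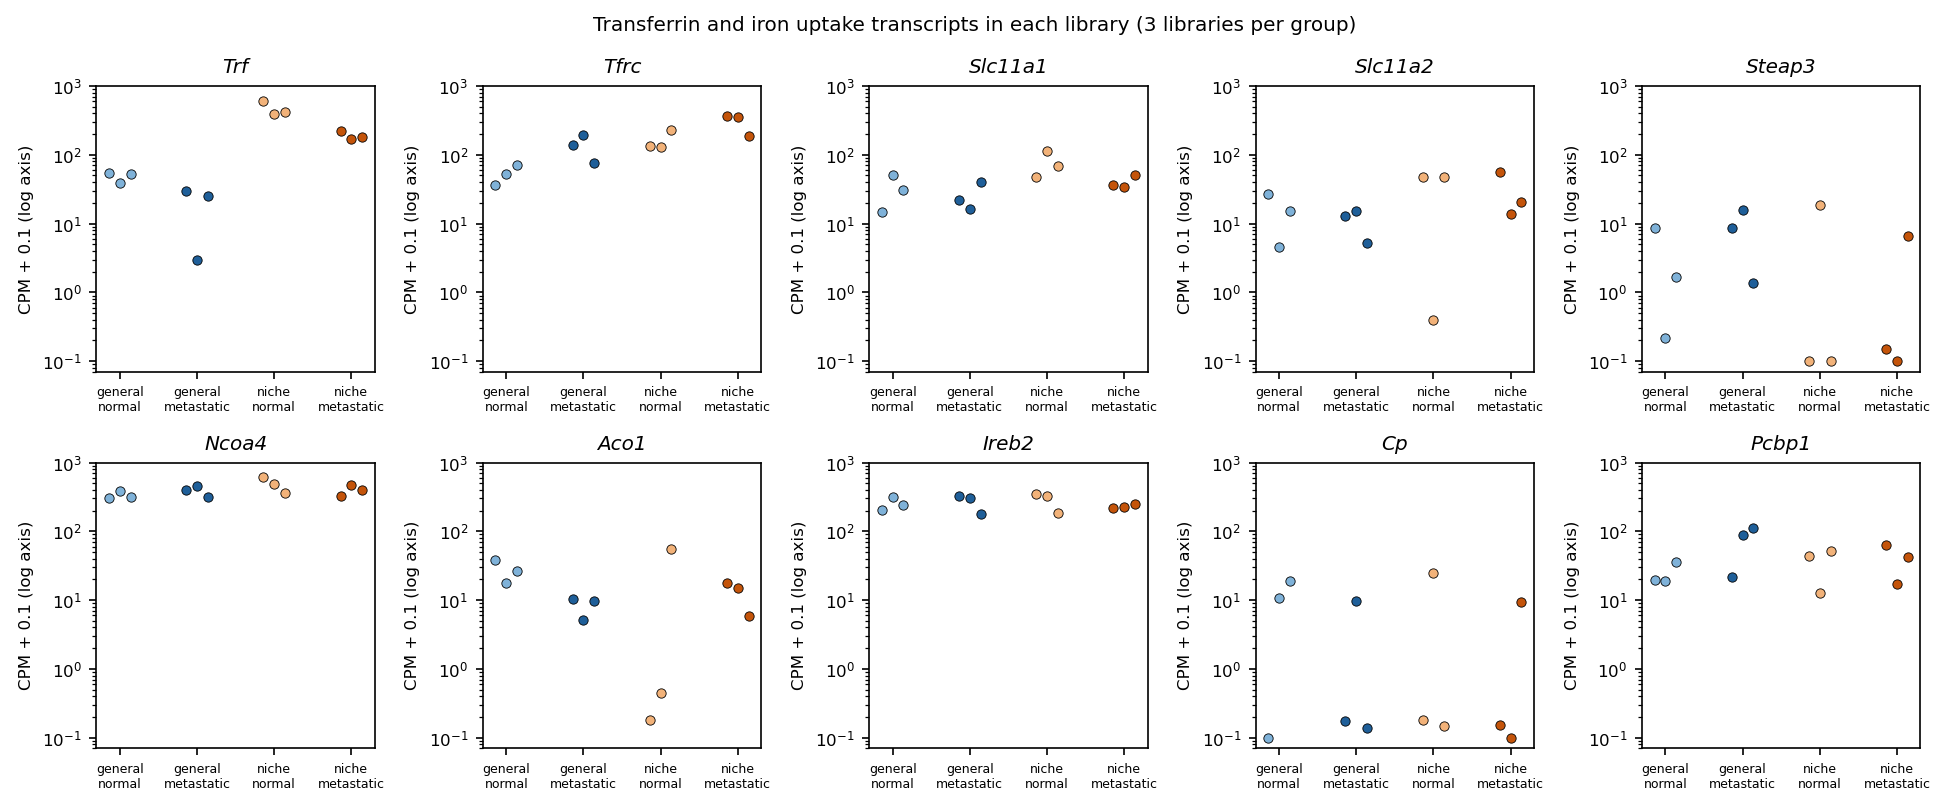
Level of the 10 genes in each of the 12 libraries, as CPM plus 0.1 on a log axis, 3 points per group. Trf separates niche from general libraries, Tfrc does so in normal marrow and overlaps in metastatic marrow, Ncoa4 and Ireb2 lie between 178.7 and 612.5 CPM throughout, and Steap3 and Cp are near 0 in some libraries of every group except Steap3 in general macrophages from metastatic marrow.

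Trf was the member that most separated the populations, about 10-fold higher in niche than in general macrophages in either marrow state. In normal marrow, Trf (chr9:103204001-103230444, minus strand) lay at 53.8, 39.1 and 53.0 CPM in general libraries 1 to 3 and at 596.2, 387.3 and 424.9 CPM in niche libraries A to C. In metastatic marrow it lay at 29.3, 2.89 and 25.1 CPM in general libraries 1 to 3 and at 223.4, 172.2 and 179.4 CPM in niche libraries 1 to 3. Every niche library was above every general library of either marrow state, and the general library 2 from metastatic marrow was the lowest of all 12. Niche over general macrophages, the log2 difference was 3.27 ± 0.55 in normal marrow and 3.33 ± 0.55 in metastatic marrow (SE), at edgeR adjusted p-values of 0.00195 and 0.00283. A niche group above the general group without overlap in both marrow states, as for Trf, was seen for 2.78% of tested genes. The call held in each of the 6 fits of each comparison that left out 1 library, with log2 fold changes of 3.07 to 3.39 and of 2.81 to 3.77. The lowest of these, 2.81, was without general library 2 from metastatic marrow.

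In niche macrophages from normal marrow, Trf was the highest of the 10 genes per transcript length, at a mean of 141 CPM per kilobase of exon, and no other member overlapped it. It stood at percentile 98.2 of the tested genes on that scale. In general macrophages from normal marrow it ranked 3, at 14.6 CPM per kilobase, below Ncoa4 and Ireb2 and overlapping Pcbp1. Trf overlaps Gm20425, a coding gene on the same strand with no row in the count table, and how reads in their overlap were counted is not given. In bulk RNA, more cells with a transcript and more transcript per cell cannot be told apart.

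Tfrc, the receptor that brings iron-loaded transferrin into the cell, was also higher in niche macrophages, by 3.05-fold in normal and 2.22-fold in metastatic marrow, and the difference passed the test in normal but not in metastatic marrow. In normal marrow, Tfrc (chr16:32608920-32632794, plus strand) lay at 36.5, 53.2 and 71.9 CPM in general libraries 1 to 3 and at 135, 129 and 229 CPM in niche libraries A to C. The lowest niche library was above the highest general library, and niche exceeded general macrophages by 1.61 ± 0.41 on the log2 scale (SE), at an edgeR adjusted p of 0.0439. The receptor in metastatic marrow lay at 139, 196.5 and 75.7 CPM in general libraries and at 364, 359.4 and 188 CPM in niche libraries 1 to 3. General library 2 was above niche library 3, and the difference of 1.15 ± 0.41 on that scale (SE) did not pass (edgeR adjusted p = 0.416). Metastatic minus normal marrow, these log2 fold changes differed by -0.46 ± 0.57 (SE; 95% interval -1.65 to 0.74), so a difference between marrow states was not shown.

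The call of Tfrc in normal marrow was lost in 4 of the 6 fits that left out 1 library. Its edgeR adjusted p was 0.205, 0.147 and 0.0599 without general library 1, 2 or 3 and 0.140 without niche library C, with log2 fold changes between 1.29 and 1.88. It was 0.353 by limma-voom with sample quality weights and 0.135 by edgeR with the 6 libraries alone. Averaged over both marrow states, a comparison chosen after the data were seen, Tfrc was 1.38 ± 0.29 higher (log2 scale, SE) in niche macrophages at an edgeR adjusted p of 0.00800, with 2.59% of tested genes called higher and 1.62% lower, and this call held in all 12 fits that left out 1 library but not by limma-voom with sample quality weights (adjusted p = 0.0735).

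Erythroid transcripts were higher in niche than in general libraries in both marrow states without overlap, whereas Tfrc overlapped in metastatic marrow. The summed erythroid list, with 17 of its 18 genes in the table, lay at 37.0 to 121 CPM in general and 888 to 1388 CPM in niche libraries from normal marrow. In metastatic marrow it lay at 77.6 to 112 and 708.0 to 1803 CPM. Klf1 and Epor were under 3 counts in all general libraries from normal marrow, and Epor and Ank1 in all general libraries from metastatic marrow. Klf1 was under 3 counts in all niche libraries from metastatic marrow, and no listed gene was that low in all niche libraries from normal marrow. The part of erythroid RNA in the Tfrc difference between populations was not tested. The B and plasma cell list was also higher in niche libraries, at 687.1 to 1681 against 209 to 361 CPM, as was the stromal and endothelial list (9 of 12 genes in the table), at 37.7 to 161 against 5.09 to 25.2 CPM. The T and NK cell list, with 10 of 10 genes in the table, lay at 189 to 469 against 108 to 179.5 CPM in normal marrow and overlapped in metastatic marrow. The macrophage list without the sorting antigens, chosen after the data were seen, lay at 1243 to 2803 CPM in niche and 893 to 1595 CPM in general libraries and did not overlap within either marrow state. The eosinophil list, with 8 of 8 genes in the table, lay at 7.87 to 118 CPM in niche against 150 to 256 CPM in general libraries from metastatic marrow, and overlapped narrowly in normal marrow. The part of these lists in the Trf and Tfrc differences was not tested.

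With metastasis, Trf was lower and Tfrc higher in both populations, although neither passed the test over all genes. Trf had log2 fold changes of -1.35 ± 0.52 in general (SE; edgeR adjusted p = 0.944) and -1.29 ± 0.51 in niche macrophages (SE; edgeR adjusted p = 0.381), with unadjusted edgeR p-values of 0.0172 and 0.0211. Each of the 3 libraries from metastatic marrow was below each from normal marrow in both populations, a pattern that 0.691% of tested genes showed. Tfrc had log2 fold changes of 1.35 ± 0.41 in general (SE; edgeR adjusted p = 0.944) and 0.89 ± 0.41 in niche macrophages (SE; edgeR adjusted p = 0.389), with unadjusted edgeR p-values of 0.00399 and 0.0419. Its groups did not overlap in general macrophages, as for 7.27% of tested genes in that direction, whereas niche library C from normal marrow, at 229 CPM, was above niche library 3 from metastatic marrow, at 188 CPM.

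Averaged over both populations, a comparison chosen after the data were seen, Trf changed by -1.32 ± 0.36 and Tfrc by 1.12 ± 0.29 on the log2 scale (SE; edgeR adjusted p = 0.271 and 0.260). The unadjusted p-values were 0.00180 and 0.00104, and DESeq2 called both (adjusted p = 0.0129 and 0.0168). For this average edgeR called 0.0543% of tested genes, and DESeq2 4.99% of the genes it gave an adjusted p. Without general library 2 from metastatic marrow, the fold change of Trf in general macrophages was -0.83 and that of Tfrc 1.00 on the log2 scale. The metastasis effects of the 2 populations differed by 0.05 ± 0.71 for Trf (SE; 95% interval -1.44 to 1.55, edgeR adjusted p = 1.00), so the interval is wide and equal effects were not shown.

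**Figure D2:**
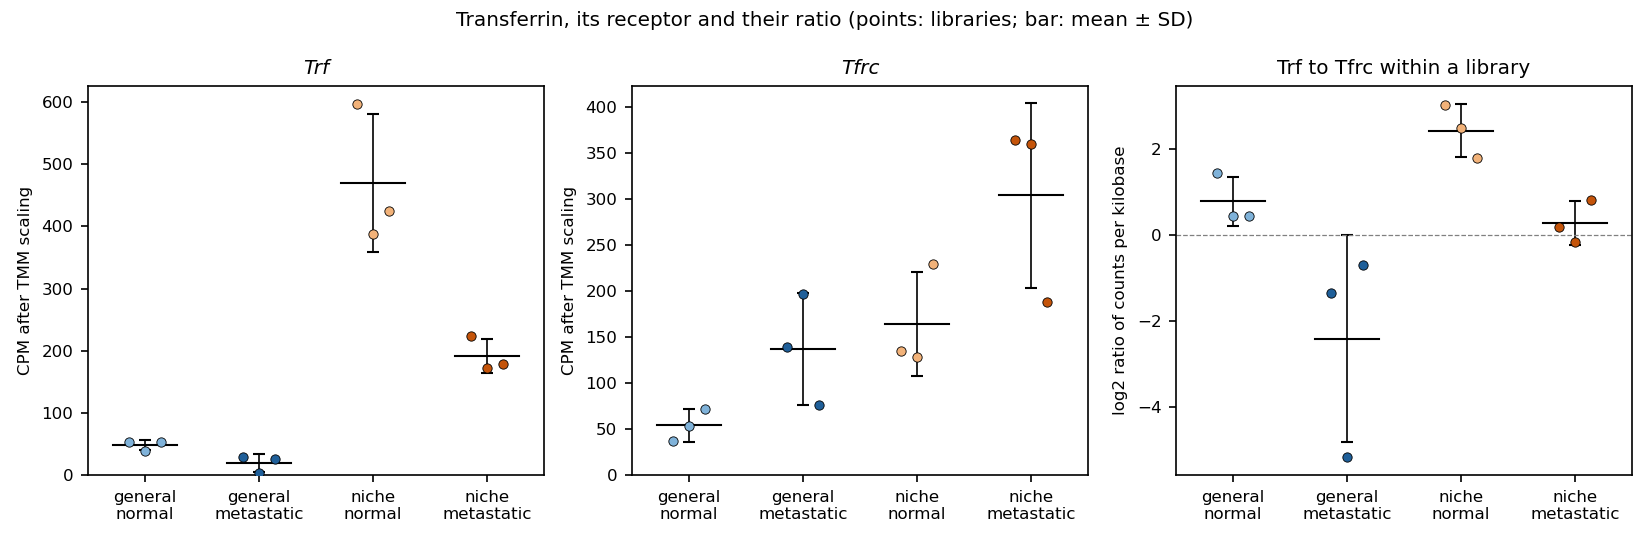
Trf and Tfrc in CPM and the log2 ratio of Trf to Tfrc counts per kilobase in each library, with points for libraries and bars for the mean ± SD of 3. Trf is highest in the 3 niche libraries from normal marrow, the mean of Tfrc is highest in niche macrophages from metastatic marrow although library 3 there lies within the range of other groups, and the ratio is below 0 in all 3 general libraries from metastatic marrow.

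The ratio of carrier to receptor transcript within a library needs no scaling between libraries. On the log2 scale of counts per kilobase, Trf over Tfrc was 1.45, 0.46 and 0.46 in general libraries 1 to 3 from normal marrow and -1.35, -5.17 and -0.69 in those from metastatic marrow. In niche libraries it was 3.04, 2.49 and 1.79 in A to C from normal marrow and 0.19, -0.16 and 0.83 in 1 to 3 from metastatic marrow. Trf therefore exceeded Tfrc in all 6 libraries from normal marrow, by 1.37 to 8.22 times, and in 2 of 6 from metastatic marrow, both of them niche libraries. The mean ratio was lower with metastasis by 3.19 in general and by 2.15 in niche macrophages on the log2 scale, and the groups did not overlap in either. Without general library 2 from metastatic marrow the difference in general macrophages was -1.81. Niche macrophages had the higher ratio, by 1.65 in normal and 2.69 in metastatic marrow, and by 1.31 in metastatic marrow without that library. Each of these 4 comparisons had an exact two-sided permutation p of 0.1, the smallest that 3 libraries against 3 can give, or 0.2 after adjustment over 8 tests of ratios.

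Marker lists that moved with metastasis are given beside these values, and their part in the Trf and Tfrc differences was not tested. The proliferation list, whose genes mark cycling cells and which had 18 of 18 genes in the table, summed to 2664 to 2995 CPM in general libraries from normal and 4159 to 4511 CPM in those from metastatic marrow. In niche libraries it summed to 2171 to 2463 and 2713 to 3505 CPM. The macrophage list, 14 genes of which 5 encode sorting antigens, summed to 2015 to 2622 and 1597 to 1820 CPM in general libraries and to 6102 to 7584 and 3184 to 5343 CPM in niche libraries. Of the sorting antigens, Vcam1, Ccr3 and Adgre1 were lower with metastasis in niche libraries without overlap, as for Trf. Normal before metastatic marrow, Vcam1 lay at 2088 to 2248 and 937.6 to 1621 CPM, and Ccr3 at 378 to 675 and 118 to 316 CPM. Adgre1 lay at 343 to 589 and 144 to 261.5 CPM. Cd163, at 709.9 to 941.0 and 296.6 to 788.9 CPM, overlapped, as did Itgam, at 327.8 to 547.3 and 330.2 to 567.2 CPM. In general libraries Ccr3 was higher with metastasis, at 8.25 to 13.5 and 15.0 to 19.8 CPM. Itgam was lower there, at 628.4 to 852.3 and 503.2 to 576.3 CPM, and the others overlapped. The macrophage list without the sorting antigens, 9 genes, summed to 1114 to 1595 and 893 to 1059 CPM in general libraries and to 1849 to 2803 and 1243 to 2025 CPM in niche libraries. The monocyte list, 12 genes, summed to 14273 to 14974 and 18677 to 20486 CPM in general libraries and to 5649 to 7014 and 9079 to 11625 CPM in niche libraries. The B and plasma cell list summed to 209 to 295 and 302 to 361 CPM in general libraries, and overlapped in niche libraries. The stromal and endothelial list summed to 132 to 161 and 37.7 to 130 CPM in niche libraries, and overlapped in general libraries. The erythroid list summed to 121, 46.7 and 37.0 CPM in general libraries 1 to 3 from normal marrow and to 77.6 to 112 CPM in those from metastatic marrow, so that library 1 from normal marrow alone made these groups overlap. It overlapped in niche libraries as well.

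**Figure D3:**
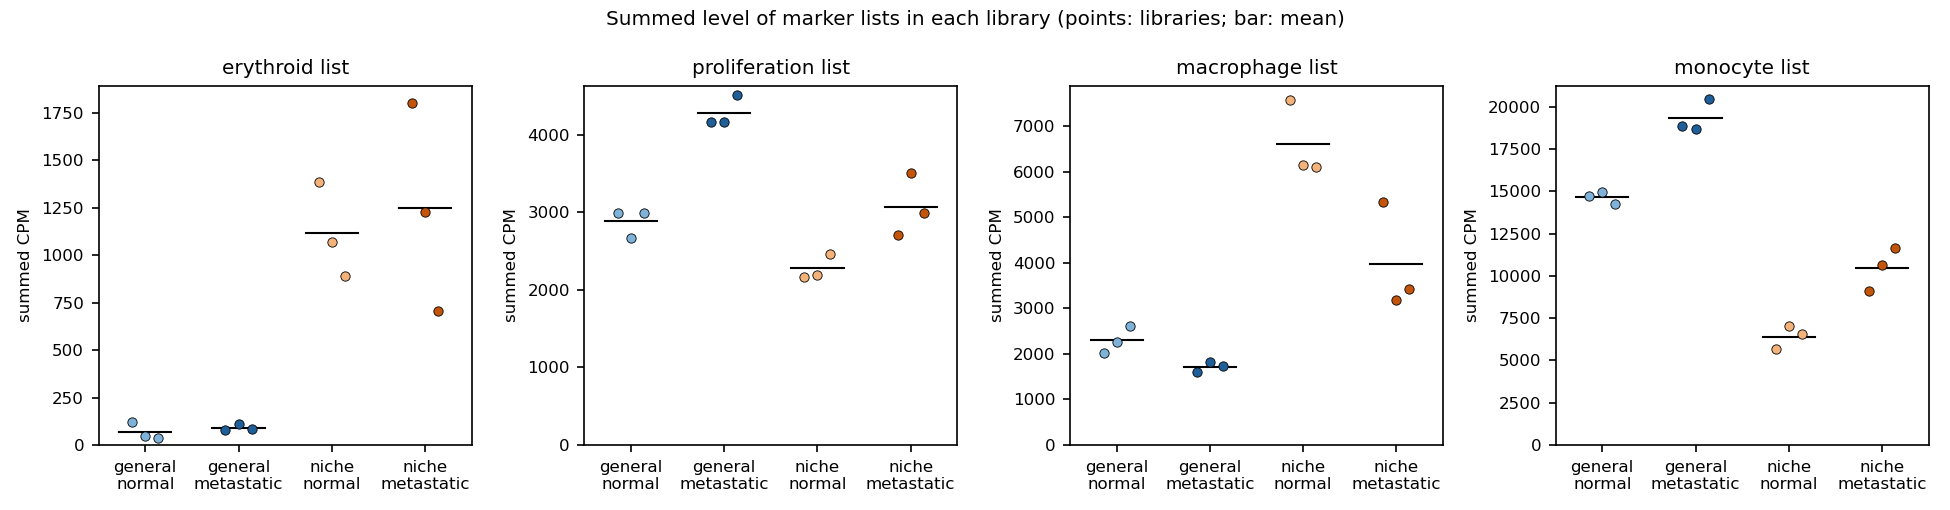
Summed CPM of the erythroid, proliferation, macrophage and monocyte marker lists in each library, with points for libraries and a bar for the mean of 3. Erythroid genes separate the populations, whereas the proliferation and monocyte lists are higher in metastatic marrow within each population.

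Between populations, 2 of the 10 members were called in normal marrow (Trf and Tfrc, both higher in niche macrophages) and 1 in metastatic marrow (Trf, higher). Over all tested genes, 1.50% were called higher in normal and 0.574% in metastatic marrow. The median log2 fold change of the members was 0.72 in normal and 0.32 in metastatic marrow, against 0.19 and 0.04 over all tested genes. With metastasis, 0 of 10 members were called by edgeR in either population, where 0.0155% of genes were called in general and 0.00776% in niche macrophages. In each case 2 members, Trf and Tfrc, had an unadjusted edgeR p under 0.05, against 5.12% and 12.7% of tested genes, and DESeq2 called 0 of 10 as well, against 1.19% of genes in general and 8.19% in niche macrophages. For the difference of the metastasis effect between populations, 0 of 10 members and 0% of tested genes were called by edgeR, DESeq2 called 0 of 10 members and 3.46% of genes, and 0 members against 7.89% of genes had an unadjusted edgeR p under 0.05. The comparisons share groups, so their fold changes are not independent.

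**Figure D4:**
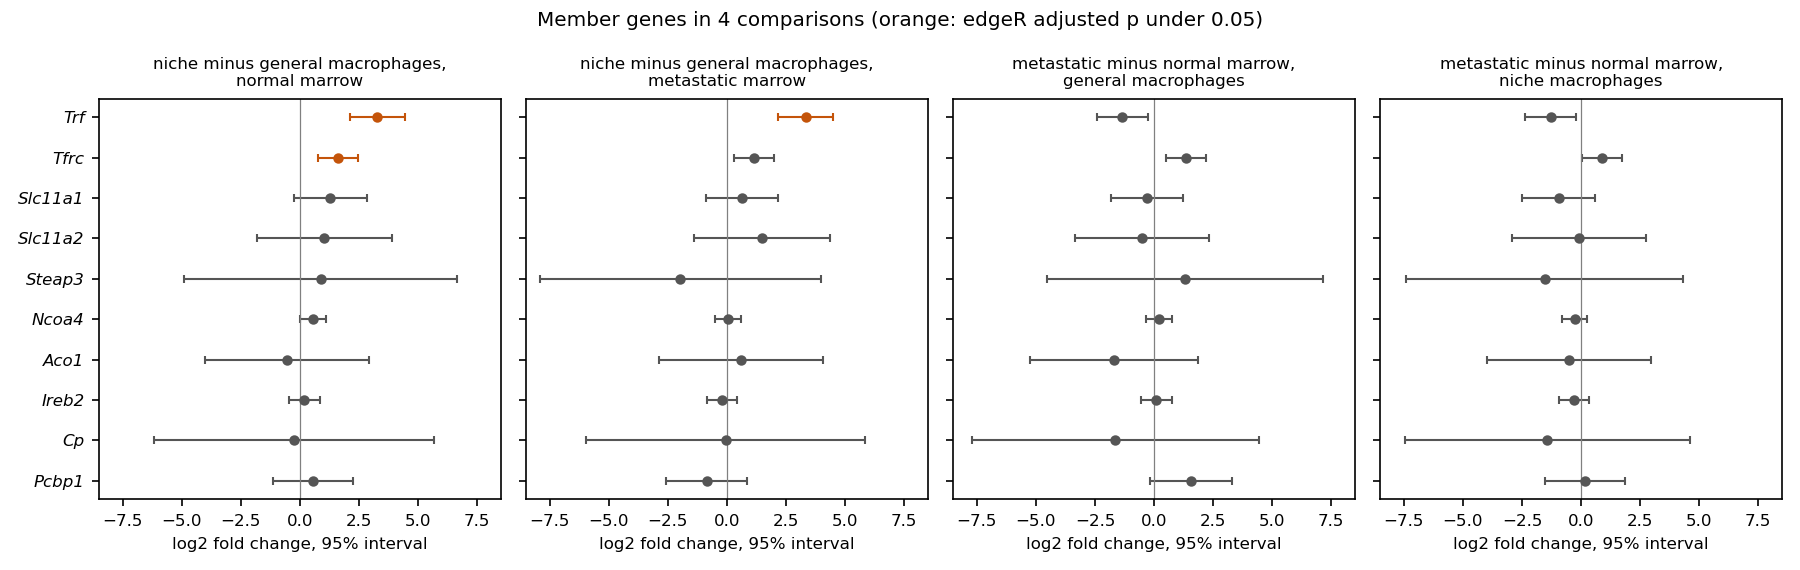
Log2 fold change with its 95% interval for the 10 genes in 4 comparisons, over all 12 libraries, with calls at an edgeR adjusted p under 0.05 in orange. Trf is called in both comparisons of populations and Tfrc in normal marrow, and the intervals of Steap3, Cp, Aco1 and Slc11a2 are the widest.

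Both metal transporters had higher means in niche than in general macrophages in each marrow state, but the groups overlapped and neither gene passed. Slc11a1 (chr1:74375195-74386062, plus strand) encodes NRAMP1, a phagosomal transporter of macrophages and neutrophils. It lay at 14.5, 50.5 and 30.7 CPM in general libraries 1 to 3 and at 47.5, 115 and 69.7 CPM in niche libraries A to C from normal marrow. In metastatic marrow it lay at 22.0, 16.1 and 39.8 CPM in general and 36.4, 33.7 and 50.7 CPM in niche libraries 1 to 3. The log2 fold changes of niche over general macrophages were 1.28 ± 0.74 and 0.63 ± 0.73 (SE; edgeR adjusted p = 0.349 and 1.00), with 95% intervals of -0.27 to 2.83 and -0.90 to 2.17. The highest values were in niche library B from normal marrow.

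Slc11a2 (chr15:100387898-100425072, minus strand) encodes DMT1, the endosomal transporter of the transferrin route. It lay at 27.1, 4.51 and 15.3 CPM in general libraries from normal marrow and at 12.7, 14.9 and 5.05 CPM in those from metastatic marrow. Niche libraries A and C from normal marrow had 48.1 and 47.7 CPM, against 6 counts, or 0.298 CPM, in library B, and niche libraries 1 to 3 from metastatic marrow had 56.9, 13.6 and 20.8 CPM. Niche over general macrophages, the log2 differences were 1.03 ± 1.37 in normal and 1.48 ± 1.38 in metastatic marrow (SE). With a library left out they ranged from 0.60 to 1.69 and from 0.65 to 1.84, and limma-voom with sample quality weights gave -0.86 in normal marrow. The lowest were without general library 2 from normal and niche library 1 from metastatic marrow. Slc11a2 overlaps Gm5475, a coding gene on the opposite strand with no row in the table. No comparison of Slc11a2 passed (edgeR adjusted p of 0.542 or more, averages included). Library B was thus the highest for Slc11a1 and the lowest for Slc11a2. Of the 8 ratio tests, the 4 of Slc11a1 over Slc11a2 had exact permutation p-values of 0.6 to 1, and the sign of the difference between populations in normal marrow turned without library B, from 1.78 to -0.93 on the log2 scale.

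Cp was detected unevenly inside every group, and Steap3 in every group except general macrophages from metastatic marrow, where all 3 libraries held it. Steap3 (chr1:120190757-120272705, minus strand) encodes the endosomal ferrireductase. It had 124, 2 and 31 counts in general libraries 1 to 3 from normal marrow and 237, 344 and 35 in those from metastatic marrow. Niche libraries A to C had 0, 376 and 0 counts, and niche libraries 1 to 3 from metastatic marrow had 1, 0 and 173. At most 1 niche library of either group held more than 3 counts, and no comparison passed (edgeR adjusted p of 0.934 or more, averages included).

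Cp (chr3:19957054-20009145, plus strand) encodes ceruloplasmin, a copper ferroxidase that helps load iron onto transferrin. It had 0, 181 and 383 counts in general libraries from normal marrow and 2, 210 and 1 in those from metastatic marrow. Niche libraries had 1, 500 and 1 counts in A to C and 1, 0 and 249 in 1 to 3 from metastatic marrow. Hps3 overlaps Cp on the opposite strand, and the strand setting of the counting is not given. Hps3 lay at 92.2 to 201 CPM in all 12 libraries, including the 7 in which Cp had 0 to 2 counts.

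Within any of the 4 groups the highest library was at most 1.69 times the lowest for Ncoa4 and 1.92 times for Ireb2. Aco1, the other iron sensor, varied widely in niche macrophages from normal marrow and by 2.10 to 3.11 times in the other groups. Ncoa4 (chr14:32159865-32179855, plus strand), the receptor that delivers ferritin to lysosomes, lay at 305.1, 388.9 and 310.0 CPM in general libraries from normal marrow and at 401, 454 and 315.1 CPM in those from metastatic marrow. Niche libraries had 612.5, 483.9 and 363.0 CPM in A to C and 330.1, 477 and 397.5 CPM in 1 to 3 from metastatic marrow. The groups overlapped in all 4 comparisons. Its log2 fold change of niche over general macrophages was 0.54 ± 0.26 in normal marrow (SE; edgeR adjusted p = 0.267, 95% interval -0.0049 to 1.08) and 0.04 ± 0.26 in metastatic marrow (SE; edgeR adjusted p = 1.00, 95% interval -0.50 to 0.58). Per length, Ncoa4 was the highest member in general macrophages of either marrow state, at 35.7 and 41.7 CPM per kilobase, overlapping Ireb2 in each. In metastatic marrow it also overlapped Pcbp1, whose mean was 40.1 and whose highest library, at 60.2 CPM per kilobase, was above every library of Ncoa4.

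Ireb2 (chr9:54863789-54912530, plus strand) encodes iron regulatory protein 2, which is degraded when iron is plentiful. It lay between 178.7 and 353.8 CPM in the 12 libraries, and its group means were 253.4 ± 59.2, 269.6 ± 79.4, 286 ± 90.0 and 231.5 ± 19.6 CPM (SD, n = 3 each) in general macrophages from normal and metastatic marrow and niche macrophages from normal and metastatic marrow. Its log2 fold changes lay between -0.31 and 0.17 in the 4 comparisons, and the widest limits of their 95% intervals were -0.96 and 0.82. Changes within those limits are compatible with the intervals.

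Aco1 (chr4:40143081-40198338, plus strand) encodes iron regulatory protein 1, which is cytosolic aconitase when it holds an iron-sulphur cluster. In general macrophages it lay at 37.6, 17.5 and 26.1 CPM in normal and at 10.4, 4.97 and 9.73 CPM in metastatic marrow. These groups did not overlap, as for 5.64% of tested genes in that direction, but the log2 fold change of -1.69 ± 1.70 did not pass (SE; edgeR adjusted p = 1.00). Niche libraries A, B and C had 1, 7 and 1092 counts, or 0.0811, 0.348 and 54.8 CPM, so that the group held both the lowest values and the highest value of Aco1. Niche libraries 1 to 3 from metastatic marrow had 17.7, 14.9 and 5.69 CPM. Ireb2 was above Aco1 per kilobase in every group, with means of 24.4 to 30.2 against 1.86 to 6.02 CPM per kilobase, and their ranges did not overlap in any group.

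Pcbp1 (chr6:86524492-86526321, minus strand) encodes a chaperone that hands iron to ferritin. It lay at 19.4, 19.0 and 35.7 CPM in general libraries from normal marrow and at 21.2, 88.5 and 110 CPM in those from metastatic marrow. Niche libraries had 44.0, 12.7 and 52.1 CPM in A to C and 62.2, 17.0 and 41.6 CPM in 1 to 3 from metastatic marrow. The log2 fold change with metastasis in general macrophages was 1.57 ± 0.83 (SE; edgeR adjusted p = 0.944), and library 1 from metastatic marrow lay within the range of normal marrow. An antisense gene, 1600020E01Rik, overlaps Pcbp1 and had at most 9.79 CPM.

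Spread inside a group differed between members. With 1 CPM added, the highest library exceeded the lowest by more than 10-fold for 4 of 10 members in niche macrophages from normal marrow (Slc11a2, Steap3, Aco1 and Cp) and for 1 (Cp) in each other group. Over all tested genes the shares were 41.5% in that group and 9.24% to 26.8% in the others, so the share of members in that group is near that of all genes.

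In niche macrophages from metastatic marrow the order per kilobase was Trf at 57.7, Tfrc at 49.1, Ncoa4 at 42.9, Ireb2 at 24.4, Pcbp1 at 22.0 and Slc11a1 at 10.9 CPM per kilobase, followed by Slc11a2, Aco1, Steap3 and Cp at 4.79 to 0.322. Tfrc overlapped both Trf and Ncoa4 there, while Trf and Ncoa4 did not overlap. In niche macrophages from normal marrow Trf overlapped no other member, and Tfrc, at 26.5 CPM per kilobase, ranked 4 and overlapped Ireb2. In general macrophages from metastatic marrow Trf ranked 6, at 5.75 CPM per kilobase, and did not overlap Tfrc, which ranked 4 at 22.1.

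Other iron genes were taken from 2 lists. Of 17 further genes of the transferrin cycle and iron uptake, 15 were in the table and 11 were tested, and 0 were called by edgeR in any of the 4 comparisons of 2 groups. The smallest p-value in normal marrow was that of Lrp1, an endocytic receptor that also takes up haem bound to hemopexin, which lay at 35.1 to 228 CPM in general and 358.4 to 843.5 CPM in niche libraries (log2 fold change 1.89 ± 0.51 SE, edgeR adjusted p = 0.0569). In metastatic marrow and in general macrophages with metastasis it was that of Steap4, a plasma membrane ferrireductase, which had 2.82 to 10.4 CPM in general libraries from metastatic marrow and at most 0.0502 CPM in every other library (edgeR adjusted p = 0.278 and 0.944). Steap4 passed the filter on low counts only through that group, so no conclusion is drawn from its p-values. In niche macrophages with metastasis it was that of Ltf, the iron-binding lactoferrin of neutrophil granules, at -0.38 ± 0.20 on the log2 scale (SE), which did not pass (edgeR adjusted p = 0.418).

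Of 17 genes of iron storage, delivery, sensing and export, 16 were in the table and 15 were tested, and 2 were called in each comparison of populations, where 1.50% and 0.574% of all tested genes were called higher. Hmox1, the haem oxygenase that frees iron from haem, and Slc40a1, the iron exporter, exceeded their levels in general macrophages by 4.16 and 2.63 (normal marrow) and by 3.27 and 1.89 (metastatic marrow) on the log2 scale (edgeR adjusted p = 3.48e-07, 3.38e-06, 9.70e-06 and 0.000153). With metastasis 0 of 15 were called by edgeR. The smallest p-value was that of Slc40a1 in both populations, with log2 fold changes of -1.25 ± 0.24 in niche (SE; edgeR adjusted p = 0.0825) and -0.51 ± 0.23 in general macrophages (SE; edgeR adjusted p = 0.944). Of the storage genes that carry the 5′ UTR hairpin printed above, Ftl1 lay at 114 to 161 CPM in general and 235.6 to 432 CPM in niche libraries from normal marrow (edgeR adjusted p = 0.101), and at 75.4 to 205 and 134 to 289 CPM in metastatic marrow, where they overlapped (edgeR adjusted p = 0.885). Fth1 lay at 230.3 to 398.8 and 246.9 to 542 CPM in normal marrow (edgeR adjusted p = 0.574) and at 151 to 244 and 186 to 511 CPM in metastatic marrow (edgeR adjusted p = 0.625). Ferritin genes have near-identical pseudogenes, so their counts are uncertain.

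The genes whose levels across the 12 libraries were most like those of 3 members were found by the root mean square difference of centred log2 CPM, among 8145 genes averaging 10 CPM or more. For Trf they were Siglec1, the sialic acid receptor CD169 of tissue macrophages, at a difference of 0.73, Pld3, a lysosomal enzyme, at 0.78, and Sdc3, a cell surface proteoglycan, at 0.80, against a median of 2.51 over all candidates. The group means of Siglec1 were 23.4 and 12.1 CPM in general and 302 and 222 CPM in niche macrophages, normal before metastatic marrow. For Tfrc they were Atm, a kinase of the DNA damage response, at 0.41, Metap2, a methionine aminopeptidase, at 0.55, and Fosb, a subunit of the AP-1 transcription factor, at 0.56, with a median of 1.69. For Slc11a1 they were Slc25a51, a mitochondrial carrier, at 0.40, Ralgapa2 at 0.45 and Ptgs1, a cyclooxygenase, at 0.45, with a median of 1.60. The libraries share population and marrow state, so these values describe shape only.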

How the data were processed

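The authors deposited 1 table of expected counts per gene symbol and library, of which 75.0% of values were whole within 1e-09. Per the submitters' processing notes, STAR 2.7.3a, Partek, DESeq2 1.40.2, R 4.3.1 and mm10 were used, without stated roles; the counting program, annotation and strand setting are not given in the sources used here. Per the labels' protocols, total RNA was depleted of ribosomal RNA and made into Illumina libraries.

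The counts were rounded, filtered with filterByExpr, scaled by TMM and fitted over all 12 libraries as 4 group means with edgeR 4.0.16 (R 4.3.3). Quasi-likelihood F-tests were adjusted by Benjamini-Hochberg over 12882 genes, and an adjusted p under 0.05 is a call. Standard errors come from the F statistic. Replicates are different mice, per the design text, and chi-square statistics between libraries of a group were 139 to 411 per degree of freedom, so none was a duplicate. The procedure was tested on simulated data with a dispersion shared by all genes: most changed genes were called at a low dispersion and none at a high one. Dispersions differ between the genes of these libraries, so this sets no limit for a single gene. A gene that was not called may still differ. Alternatives were RLE scaling, library size only, 2 other filters, DESeq2 1.42.0, limma-voom with sample quality weights (limma 3.58.1), fewer libraries, a replicate block, removal of 345 haemoglobin, immunoglobulin, mitochondrial and small nucleolar RNA genes (9.12% to 25.6% of counts), and leaving out each library. The ratio tests are exact permutation tests with 1 count added to each gene.

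Positions, exon lengths and sequences come from GENCODE M21 (GRCm38), with 18026 of 18467 symbols matched. The members and gene lists were chosen with earlier results of these data known. Named genes are the 10 members, the 3 nearest patterns of Trf, Tfrc and Slc11a1, and in each other iron list the called genes or that with the smallest p-value; Fth1 and Ftl1 were added for their printed sequences. The 3-count floor covers counting error alone, because without molecular identifiers duplicate reads of a molecule are counted.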

Additional observations from a re-analysis of the deposited data

How the results depend on the processing

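The higher Trf in niche macrophages was called by every alternative run in normal (14 of 14) and in metastatic marrow (15 of 15), with log2 fold changes of 3.07 to 3.39 and 2.81 to 3.77. With metastasis, Trf and Tfrc kept their sign in all 15 alternatives in general and all 14 in niche macrophages and passed in none. Members called in normal marrow were 2, but 1 by limma-voom with sample quality weights (the single limma-voom fit run), 1 with the 6 libraries alone and 1 to 2 with a library left out. Averaged over marrow states they were 2, and 1 by that limma-voom fit. The averaged metastasis effect had 0, and 2 by DESeq2. The cause of these changes was not tested.

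Counts over all genes moved more. DESeq2 called 1825 genes against 318 by edgeR between populations in normal marrow, 480 against 107 in metastatic marrow, 141 against 2 with metastasis in general and 954 against 1 in niche macrophages, 410 against 0 for their difference, and 1670 against 542 and 591 against 7 for the averages over marrow states and over populations. In the same order limma-voom with those weights called 186, 178, 23 and 11 genes, and 11 for the average over populations. The 6 libraries alone gave 163 in normal marrow, and 0 in niche macrophages with metastasis. Scaling by library size alone gave 0, 0 and 4 genes for metastasis in general macrophages, in niche macrophages and averaged, and no low-count filter gave 5, 3 and 12. In niche macrophages with metastasis, RLE scaling gave 0, at least 10 counts in every library 3, and removal of the haemoglobin, immunoglobulin, mitochondrial and small nucleolar RNA genes 2, which gave 11 for the average. With a library left out, the counts were 176 to 402 and 66 to 83 between populations, 0 to 0 and 0 to 66 with metastasis, 0 to 16 for the difference, and 331 to 640 and 5 to 48 for the averages. The counts 402, 66 (with metastasis), 16, 640 and 48 were without niche library B, 83 and 66 (between populations) without niche libraries 3 and 1 from metastatic marrow, 176 and 5 without general libraries 1 and 2 from normal marrow, and 331 without general library 2 from metastatic marrow. Library size alone moved the median log2 fold change of all genes from 0.04 to 0.29 between populations in metastatic marrow and from -0.17 to 0.06 with metastasis in niche macrophages.

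The Slc11a1 to Slc11a2 ratio turned sign when a library was left out. Between populations in normal marrow 1.78 became -0.93 to 3.27, negative without niche library B. In metastatic marrow -0.64 became -1.23 to 0.20, being 0.20 without general library 3 and 0.0 without niche library 1. With metastasis in general macrophages 0.10 became -0.94 to 1.24, being -0.94 without general library 1 from normal and -0.74 without general library 3 from metastatic marrow. In niche macrophages -2.32 became -3.81 to 0.39, positive without niche library B.

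Correlations of the deviations were near 0 for same-numbered libraries (r of -0.019 to 0.026 over 9 pairs, against -0.056 to 0.033 over 18 pairs of different numbers). In 10 of 18 choices among the 3 libraries of another group, the highest correlation was with the own number. These values do not settle whether the numbers pair samples, and the main fit used no pairing. With a replicate block, 117 genes and 1 member (Trf, 3.64 on the log2 scale) were called between populations in metastatic marrow, and 3 genes and 0 members with metastasis in general macrophages. The niche libraries from normal marrow carry no usable number, so no block could be fitted for the comparisons that use them. Groups of 3 libraries and a common biological coefficient of variation of 1.30 limit every comparison, most for Steap3 and Cp, which were at or under 3 counts in some libraries and at over 100 in others.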

Other observations

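Values of Tfr2, the second transferrin receptor of erythroid cells and hepatocytes, were chosen after they were seen. Tfr2 did not pass the filter on low counts, and it had 568 and 552 counts (46.1 and 27.7 CPM) in niche libraries A and C from normal marrow, 0 in niche library B, and at most 2 counts in each of the other 9 libraries. Library B was also the lowest of its group for Slc11a2 (6 counts) and the highest for Slc11a1, Steap3 (376 counts) and Cp (500 counts).

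Averaged over both marrow states, a comparison chosen after the data were seen, edgeR called 2 of the 11 tested genes of the other transferrin cycle list (Lrp1 and Ltf) and 3 of the 15 of the storage list (Hmox1, Slc40a1 and Slc25a37), against 2.59% of all tested genes called higher and 1.62% lower. Lrp1 was higher in niche macrophages by 1.49 (adjusted p = 0.0200) and Slc25a37, the mitochondrial iron importer mitoferrin 1, by 1.22 (adjusted p = 0.0263) on the log2 scale. Ltf fell by 0.64 (adjusted p = 0.0120) from general to niche macrophages, beside a neutrophil list at 14055 to 22495 CPM in general and 9641 to 11282 CPM in niche libraries, whose part in the Ltf difference was not tested.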
